A study of Mus musculus with 9 samples.

Results

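High-dose primed BV-2 cells (HP) were set against unprimed BV-2 cells (UP) at the level of RNA. The groups were chosen by sample title, as the libraries named high primed and unprimed with the replicate numbers 4, 5 and 6, which gave 6 of the 9 libraries of the study, 3 per group. BV-2 is an immortalised line of mouse microglia, the resident macrophages of the brain, and HP and UP differ only in the first of a pair of LPS exposures. HP cells were primed with 100 ng/ml LPS, a cell wall component of gram-negative bacteria, then washed, rested and restimulated with 100 ng/ml LPS. UP cells had no priming dose and received the same restimulation, so that cells of both groups had been exposed to LPS when RNA was taken. A further group of 3 libraries, primed with the ultra-low dose of 1 fg/ml LPS (ULP) and restimulated likewise, is given beside them where it helps to read a value. A separate dose field of the labels gives 1 fg/ml for HP and 100 ng/ml for ULP, the reverse of the titles and descriptions, and was not used to form the groups. Unstimulated BV-2 cells were not analysed here, so a difference between HP and UP cannot be divided into what cells had before and what they made after restimulation. How long after restimulation the RNA was taken is not stated. Nor is it stated whether separate cultures gave the 3 libraries of each group, so the p-values reflect differences among libraries that could be technical repeats. The comparison addresses how RNA levels after restimulation differ between BV-2 cells with and without an earlier high dose of LPS.

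LPS is recognised by TLR4 with its partners CD14 and MD-2. The adaptor MyD88 leads to NF-κB and to the release of cytokines such as TNF-α and IL-1β, whereas the adaptor TRIF leads to IRF3 and to IFN-β. IFN-β then acts back on the cells through its receptor, JAK kinases and the factor ISGF3, which contains STAT2 and IRF9 and switches on interferon-stimulated genes. Macrophages that have met a high dose of LPS are known to release less of several cytokines at the next exposure, a state called endotoxin tolerance.

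The counts assigned to genes summed to 26115015, 27434090 and 25561360 in HP 4, HP 5 and HP 6, against 26033356, 25649018 and 27802244 in UP 4, UP 5 and UP 6. Of 26 genes of microglial and macrophage identity, 19 passed the filter on low counts, and the RPKM (reads scaled to gene length and to the library total) summed over the list ran from 2320 to 2830 in HP and from 3160 to 3480 in UP libraries. Markers of homeostatic microglia were near 0 in all 6 libraries, with 0 to 1 counts of Cx3cr1 and 0 to 4 counts of P2ry12, and Sall1 and Fcrls had none, as far as the label microglia can be checked in this line. Marker lists of astrocytes (summed RPKM 0.754 to 0.853 in HP and 1.09 to 1.43 in UP), neurons (3.93 to 5.68 and 4.23 to 6.53), oligodendrocytes (6.58 to 8.76 and 9.1 to 10.4), fibroblasts and endothelium (0.212 to 0.39 and 0.194 to 0.295) and lymphocytes (0.123 to 0.187 and 0.0357 to 0.232) were low, and Aqp4, Rbfox3, Mog and Dcn were at 0 in all 6 libraries. In bulk RNA, fewer cells of a type and less RNA per cell cannot be told apart.

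HP libraries did not form a tight group. On the first principal component, which held 79.1% of the variance of log2 CPM (counts scaled to the library total) over the 9 libraries, HP 4 and HP 5 had 57.5 and 75.5 and HP 6 had −20.4. The ULP libraries were also split, with −39.2 for ULP 4 and 44 and 52.2 for ULP 5 and ULP 6, while the UP libraries had −46.4, −50.3 and −73. The second component, with 8.57% of the variance, set UP 5 apart, with −46.3 against 10.4 in UP 4 and 16.2 in UP 6. HP and ULP libraries lay between −4.85 and 10.9 on it. On the third component, with 4.61% of the variance, the 3 HP libraries had the lowest values of all 9, with −14.5, −8.66 and −23, while the ULP libraries had 9.06, 11.8 and 20.3 and the UP libraries 6.64, −1.09 and −0.586. Each result below is therefore given by library.

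**Figure D1:**
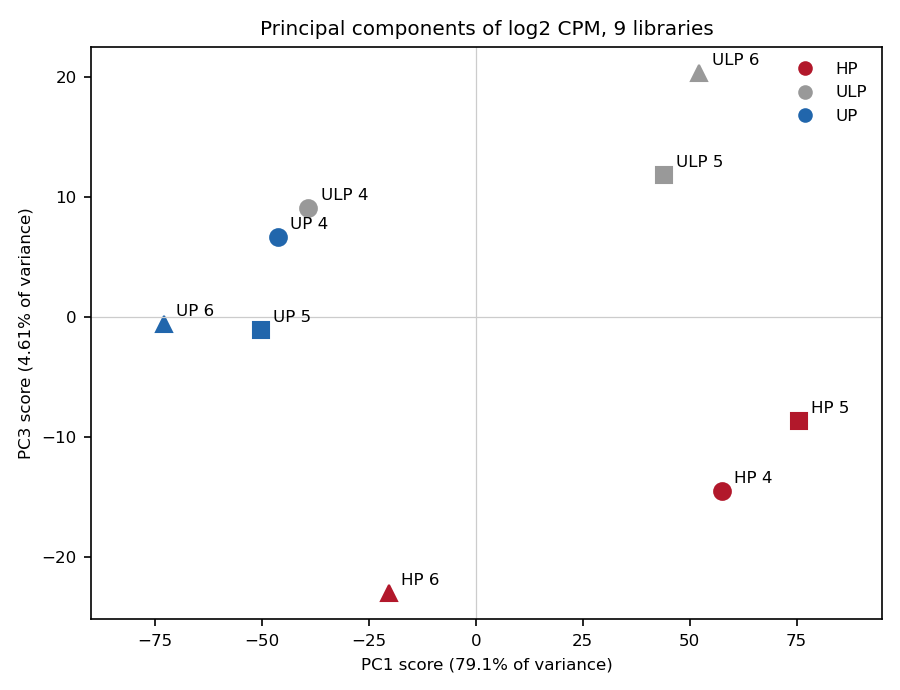
Scores of the 9 libraries on the first (x axis, 79.1% of variance) and the third (y axis, 4.61%) principal component of log2 CPM, with 1 point per library and colours for HP, ULP and UP. HP 6 (−20.4 on the x axis) lies apart from HP 4 and HP 5 on the first component and with them on the third, where the 3 HP libraries are the lowest of the 9. The second component (8.57% of variance) is not drawn.

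Priming with the high dose was followed by lower RNA of 64 genes and higher RNA of 13 genes than in UP cells. The lower genes included interferon-stimulated genes such as Ifit3 and Oasl1, the interferon factors Irf7 and Irf9, the cytokines Tnf and Il1b and the chemokines Cxcl10, Ccl5 and Ccl4. The higher genes included Ebi3 and Il1f9, which encode cytokine chains. Log2 fold changes of the 64 ran from −4.78 to −0.65 with a median of −1.45, and those of the 13 from 1.23 to 4.24 with a median of 1.70. For each of the 77 genes the HP and UP libraries did not overlap in CPM scaled by TMM, the scaling used in the test, whereas over all genes tested 20.9% had all 3 HP libraries below and 21.9% had them above all 3 UP libraries. Genes were called by edgeR's quasi-likelihood test at a Benjamini-Hochberg adjusted p under 0.05 over 14702 genes, of which 0.435% were called lower, 0.0884% higher and 0.524% in either direction.

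The number of calls depended on single libraries and on the tool. An unadjusted p under 0.05 was reached by 6020 genes, and DESeq2 called 2505 genes higher and 1145 lower (24.8% in all). By edgeR no gene passed without HP 4, 6 passed without HP 5, 7 without UP 4, 8 without UP 5, 24 without UP 6, 48 without ULP 5 and 30 without ULP 6, which enter the estimate of the spread, while 5721 passed without HP 6 and 3868 without ULP 4. Without HP 6, 3578 genes were higher and 2143 lower, and the same 77 genes were among them. The 64 lower genes had negative log2 fold changes in each of these fits.

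Relative to the mean of the UP libraries, the median log2 difference of the 64 lower genes was −1.52 in HP 4, −1.46 in HP 5 and −1.32 in HP 6, with −0.0478, −0.552 and −0.176 in the 3 ULP libraries and −0.0326, 0.185 and −0.102 in UP 4, UP 5 and UP 6. The 13 higher genes had 1.69, 1.64 and 1.53 in the HP libraries, 0.458, 0.921 and 0.894 in the ULP libraries and 0.00823, 0.0296 and −0.0253 in the UP libraries. The medians of HP 6 were thus close to those of HP 4 and HP 5 for the genes called, which is part of what the call asks. Of the 64 lower genes 50 had a mean CPM of at least 5, and of the 13 higher genes 2 did.

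**Figure D2:**
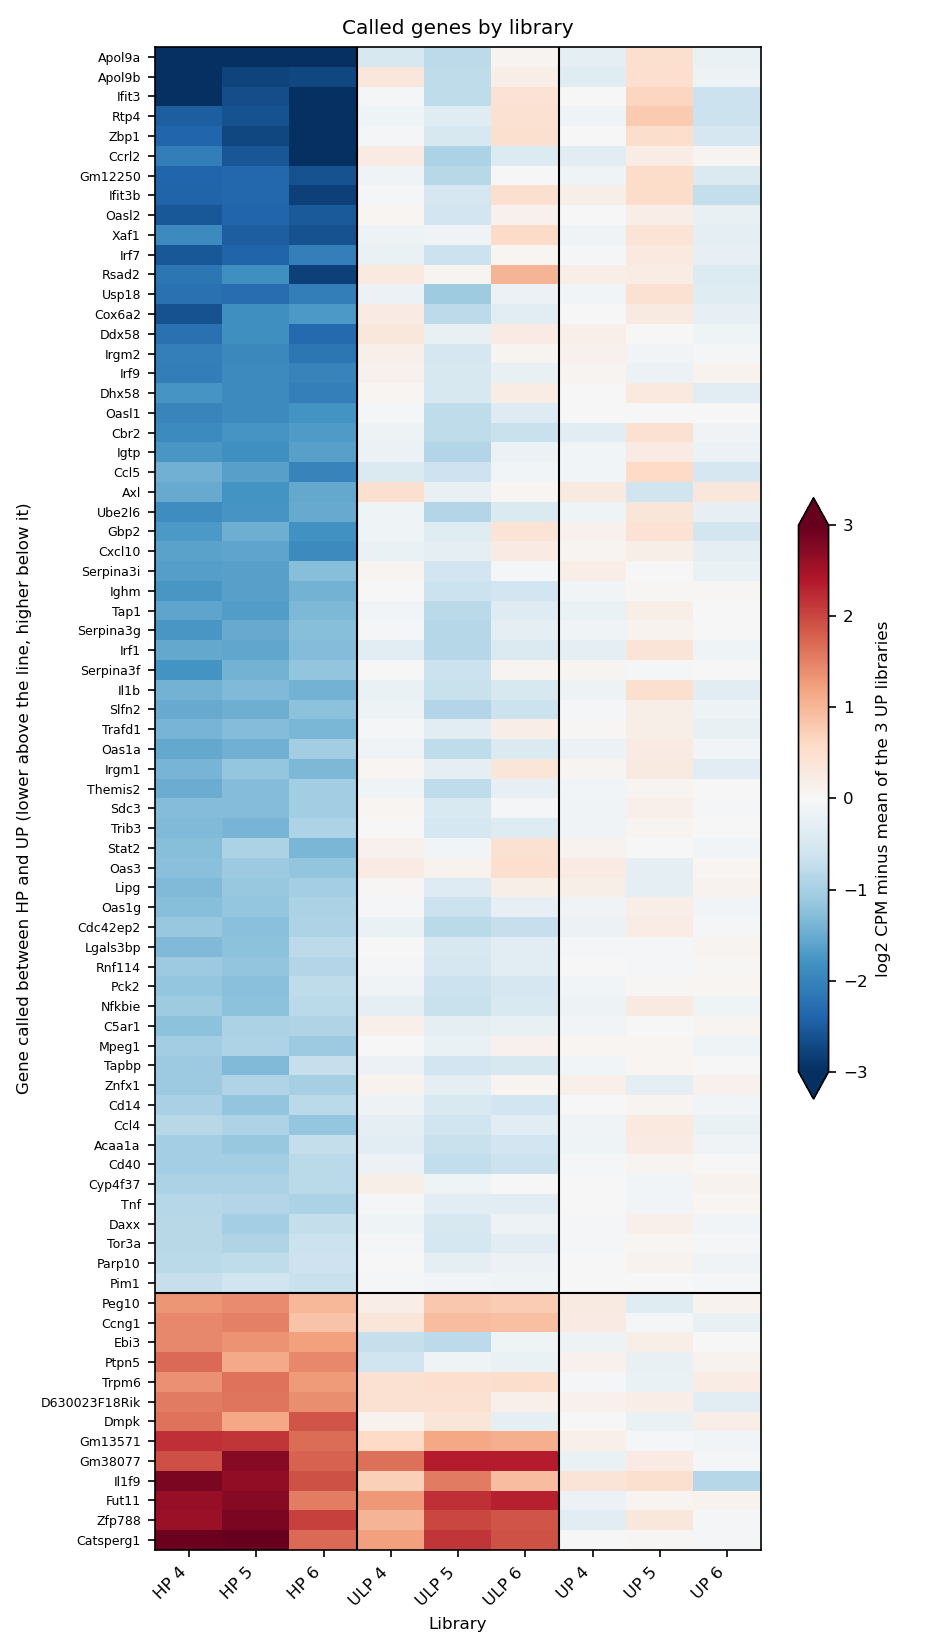
Log2 CPM of the called genes (rows, with 1 of the 77 not drawn) minus the mean of the 3 UP libraries, in each HP, ULP and UP library (columns), with blue for lower and red for higher values and the colour scale ending at −3 and 3. The lower genes, above the line, are blue in each HP library, where the medians over all 64 were −1.52, −1.46 and −1.32, and the 13 higher genes, below it, are red.

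Of the gene lists examined, that of interferon-stimulated genes held the most called genes. Of its 49 genes, 43 were tested, and 19 fell and 0 rose, against 0.435% of all genes called lower. The median log2 fold change of the 43 genes was −1.46, whereas that of all genes tested was 0.0076. By library, the median difference from the UP mean was −1.52, −1.24 and −1.66 in HP 4, HP 5 and HP 6, against 0.00699, 0.298 and −0.331 in UP 4, UP 5 and UP 6, so that HP 6 was the lowest of the 3 HP libraries. In 38 of the 43 genes each HP library was below each UP library, compared with 20.9% of all genes tested. DESeq2 called 38 of the 43 lower and 1 higher (7.79% and 17% of all genes), and edgeR called 31 lower without HP 6 (14.3% of all), 36 without ULP 4 (8.67% of all), 4 without UP 5, 3 without HP 5 or without UP 4 and 0 without HP 4.

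**Figure D3:**
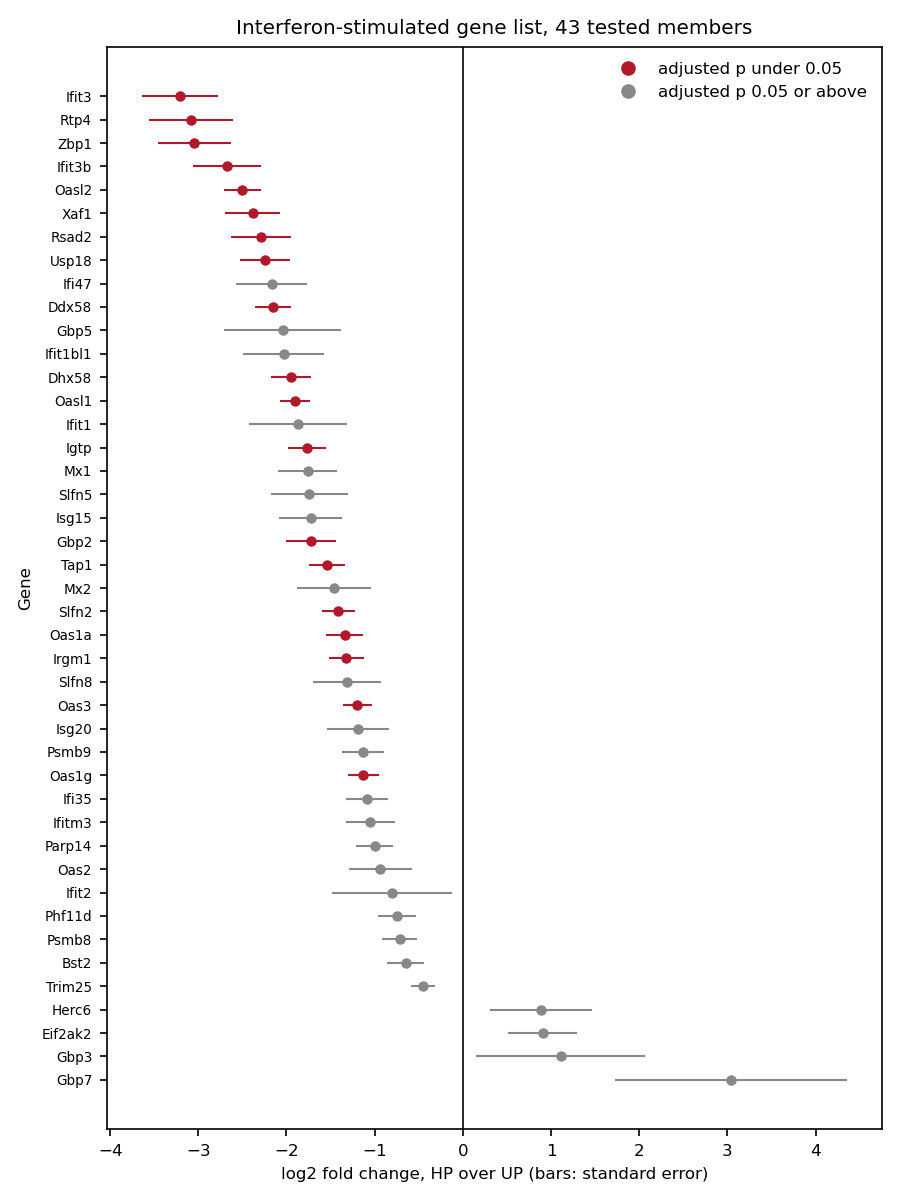
Log2 fold change of HP over UP (x axis, bars show the standard error) for the 43 tested genes of the interferon-stimulated list (y axis), in red where the adjusted p from edgeR was under 0.05 and in grey elsewhere. The 19 red genes all lie left of 0, and 4 grey genes, Herc6, Eif2ak2, Gbp3 and Gbp7, lie right of it.

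Ifit3 (ENSMUSG00000074896), which encodes an antiviral protein with tetratricopeptide repeats, had 0.834, 1.21 and 0.650 RPKM in HP 4, HP 5 and HP 6, against 7.31, 10.97 and 4.58 RPKM in UP 4, UP 5 and UP 6. The highest HP library was thus well below the lowest UP library, although the UP libraries differed more among themselves. Ifit3 was 9.23-fold lower in HP cells, with a log2 fold change of −3.21 (standard error 0.43, adjusted p = 0.0214 from edgeR). Ifit3b, a near copy of Ifit3 to which reads may have been assigned in error or not at all, had −2.67. Ifit1, of the same family, had 2.13, 2.85 and 1.19 RPKM in HP and 6.75, 11.1 and 2.75 RPKM in UP libraries and did not pass (log2 fold change −1.87, adjusted p = 0.0622 from edgeR), and for Ifit2 the groups overlapped.

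Oasl1 (ENSMUSG00000041827), a member of the oligoadenylate synthetase family without enzymatic activity that is known in the mouse to restrain translation of Irf7, had the highest RPKM, a level per gene length, of the family. It had 28.1, 29.8 and 32.1 RPKM in HP 4, HP 5 and HP 6, against 105, 101 and 104 RPKM in UP 4, UP 5 and UP 6. The libraries within each group were close to each other, and the HP group was 3.74-fold lower (log2 fold change −1.90, standard error 0.17, adjusted p = 0.00571 from edgeR). Oasl2 had 0.991, 1.12 and 1.02 RPKM in HP and 5.58, 6.04 and 4.65 RPKM in UP libraries (log2 fold change −2.50, adjusted p = 0.00571). Oas3, Oas1a and Oas1g, which make the oligoadenylates that activate RNase L, fell by 1.19, 1.34 and 1.13 on the log2 scale. Oas1a and Oas1g are near-identical, so that their separate values are uncertain, and Oas2 had a log2 fold change of −0.93 and did not pass.

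Both tested RNA sensors of the RIG-I family fell. Ddx58, which encodes RIG-I, had 0.429, 0.569 and 0.400 RPKM in HP and 2.16, 1.83 and 1.73 RPKM in UP libraries (log2 fold change −2.15, standard error 0.21, adjusted p = 0.00571 from edgeR), and Dhx58, which encodes the regulator LGP2, had 1.88, 1.74 and 1.55 RPKM in HP and 6.25, 7.22 and 4.87 RPKM in UP libraries (−1.95, adjusted p = 0.0177). The third member, Ifih1, was not tested because of low counts. Zbp1, a sensor of Z-form nucleic acids, and Rtp4 had log2 fold changes of −3.05 and −3.08, and Xaf1, an apoptosis-associated factor, had −2.38. Rsad2, which encodes the antiviral enzyme viperin, had 0.389, 0.497 and 0.244 RPKM in HP and 1.95, 1.89 and 1.25 RPKM in UP libraries (−2.29, adjusted p = 0.033).

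Usp18, which encodes a protease that removes ISG15 from proteins and also restrains the interferon receptor, had 5.74, 5.66 and 6.49 RPKM in HP, against 24.4, 33.5 and 19.7 RPKM in UP libraries. It was 4.73-fold lower in HP cells (log2 fold change −2.24, standard error 0.28, adjusted p = 0.0188 from edgeR). Ube2l6, the conjugating enzyme for ISG15, fell by 1.73, with 5.93, 6.41 and 7.57 RPKM in HP and 18.8, 24.9 and 16.8 RPKM in UP libraries. Isg15 itself had 10.2, 9.50 and 6.26 RPKM in HP and 24.9, 38.2 and 15.5 RPKM in UP libraries and did not pass (−1.73, adjusted p = 0.0606).

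Among the interferon-induced GTPases, Gbp2, a guanylate-binding protein, had 2.53, 3.04 and 2.38 RPKM in HP and 8.61, 10.2 and 5.25 RPKM in UP libraries (log2 fold change −1.72, adjusted p = 0.0439 from edgeR). The immunity-related GTPases Igtp, Irgm1 and Irgm2, which act on the vacuoles of intracellular pathogens, fell by 1.77, 1.32 and 2.07, and Gm12250, a further gene of the family, had −2.70. Members of this family are alike in sequence, and reads shared between them limit the separate values. Gbp5 and Ifi47 had −2.04 and −2.17 and did not pass. In contrast, Gbp7 and Gbp3 had 3.04 and 1.11 with overlapping groups, and Gbp7 was at 0.252 and 0.338 RPKM in HP 4 and HP 5 and at 0.0279 in HP 6, against 0.0274, 0.0208 and 0.0192 in the UP libraries.

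To show the promoters behind this group, RefSeq windows from 250 bases before to 50 bases after transcript starts (GRCm38.p6) were searched for the core of the interferon-stimulated response element, a pair of GAAA half-sites separated by any 2 bases, on both strands (TTTC half-sites where it lies on the other strand). Of the 43 tested genes of the list 35 had such windows (81.4%), and 21 of these held a match (60.0%), compared with 3.99% of all 27025 genes with windows. The NF-κB motif, GGG and TTCC separated by any 3 bases, was found for 8 of the 35 genes (22.9%, against 6.31% of all) and the AP-1 motif TGANTCA for 9 (25.7%, against 8.97%). Of the 64 lower genes 50 (78.1%) had windows, too few for the count to stand for all 64, and 16 of these held a match (32.0%). The following stretches, each read 5′ to 3′ on the strand of the gene, end before the transcript start and show the match in capitals with 25 bases on either side. None of the capitals overlaps a match of the other motifs. A match is a sequence description and says nothing about binding in these cells.
Rsad2, chr12:26456538-26456597, minus strand: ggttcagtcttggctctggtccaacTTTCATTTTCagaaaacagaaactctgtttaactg
Gbp2, chr3:142620579-142620638, plus strand: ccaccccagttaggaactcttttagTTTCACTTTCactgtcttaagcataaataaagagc
Oas3, chr5:120777700-120777759, minus strand: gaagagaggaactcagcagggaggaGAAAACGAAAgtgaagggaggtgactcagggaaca
Stat2, chr10:128270251-128270310, plus strand: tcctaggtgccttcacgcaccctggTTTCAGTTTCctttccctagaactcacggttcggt
Cxcl10, chr5:92349068-92349127, minus strand: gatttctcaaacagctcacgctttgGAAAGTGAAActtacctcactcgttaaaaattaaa
The capitals begin 120 bases before the transcript start in Rsad2, 59 in Gbp2, 75 in Oas3, 222 in Stat2 and 213 in Cxcl10, where the start of Oas3 is that of a transcript beginning inside the annotated span of the gene. All 5 genes were lower in HP cells.

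Of the 13 listed genes of type I interferon signalling 12 were tested and 4 fell, all of them transcription factors of the pathway, against 0.435% of all genes called lower, and the median of the 12 was −0.52. Irf7 (ENSMUSG00000025498), the master factor of the second wave of interferon, lies on chromosome 7 from 141263183 to 141266499 (GRCm38.p6). It had 1.38, 1.53 and 1.95 RPKM in HP 4, HP 5 and HP 6, against 7.56, 8.91 and 6.34 RPKM in UP 4, UP 5 and UP 6, and was 5.11-fold lower (log2 fold change −2.35, standard error 0.24, adjusted p = 0.0065 from edgeR). Irf9, the DNA-binding part of ISGF3, had 1.22, 1.37 and 1.29 RPKM in HP and 5.20, 4.09 and 5.14 RPKM in UP libraries (−2.02, standard error 0.18, adjusted p = 0.00571). Stat2, its partner, had 4.77, 6.04 and 4.46 RPKM in HP and 11.8, 10.3 and 10.1 RPKM in UP libraries (−1.20, adjusted p = 0.0286), and Irf1 had −1.495 with 4.57, 4.47 and 5.37 RPKM in HP and 10.4, 15.7 and 11.2 RPKM in UP libraries.

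The receptor chain Ifnar1, the kinase Jak1 and Irf3, which acts upstream of IFN-β, had log2 fold changes of 0.03, 0.05 and −0.30 and did not pass edgeR's test. Ifnb1 had too few reads for a test, with 2, 1 and 2 counts in HP and 12, 2 and 4 counts in UP libraries, a range in which the groups meet.

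Relative to ULP cells, the other primed group, HP cells had 22 genes lower and 25 genes called in all (0.15% and 0.17% of the genes tested). Of the 43 interferon-stimulated genes, 14 were lower in HP than in ULP cells, with a median log2 fold change of −1.66. Between ULP and UP cells no gene passed edgeR's test over the whole table (0%), whereas DESeq2 called 1048 and 3990 genes had an unadjusted edgeR p under 0.05, and the median of the list was 0.0717. In ULP 4, ULP 5 and ULP 6 the list had a median difference from the UP mean of 0.0281, −0.217 and 0.479. These comparisons share libraries and are given side by side. Oasl1, for example, had 28.1, 29.8 and 32.1 RPKM in HP, 103, 65.8 and 86.5 RPKM in ULP and 105, 101 and 104 RPKM in UP libraries.

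Of the inflammatory cytokines 14 of 20 were tested, and Tnf and Il1b fell, whereas none rose (0.435% of all genes were called lower). Tnf (ENSMUSG00000024401) lies on chromosome 17 from 35199367 to 35202007 (GRCm38.p6). It had 184, 184 and 174 RPKM in HP 4, HP 5 and HP 6, against 320, 285 and 324 RPKM in UP 4, UP 5 and UP 6, and was 1.86-fold lower (log2 fold change −0.90, standard error 0.11, adjusted p = 0.0203 from edgeR). HP 6 had the lowest level of the 6. Il1b, which encodes the precursor of IL-1β, had 72.1, 77.1 and 71.6 RPKM in HP and 163, 238 and 143 RPKM in UP libraries and was 2.69-fold lower (−1.43, standard error 0.21, adjusted p = 0.0291). Il1a, its relative, had 67.2, 72.9 and 50.2 RPKM in HP and 69.0, 61.9 and 54.3 RPKM in UP libraries, so that the groups overlapped, and Il18 had a log2 fold change of −0.86 that did not pass. Il6 had 2, 2 and 0 counts in HP and 1, 8 and 2 counts in UP libraries, and Il10 had at most 1 count in any of the 6. At these depths a difference in Il6 or Il10 was not detectable.

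Of 21 chemokines 13 were tested, and 3 fell and 0 rose, against the 0.435% called lower overall. Cxcl10, which attracts T cells through CXCR3, had 7.97, 8.24 and 6.44 RPKM in HP and 24.3, 24.98 and 18.9 RPKM in UP libraries and was 3.28-fold lower (log2 fold change −1.71, standard error 0.19, adjusted p = 0.014 from edgeR). Ccl5 had 3.79, 3.38 and 2.57 RPKM in HP and 9.32, 14.2 and 6.82 RPKM in UP libraries (−1.77, adjusted p = 0.046), and Ccl4, an attractant of monocytes and T cells, had 296, 276 and 236 RPKM in HP and 462, 579 and 421 RPKM in UP libraries (−0.98, adjusted p = 0.0439). For these 3 genes HP 6 was the lowest HP library. Ccl3 was the most abundant chemokine and just missed the threshold, with 1229, 1143 and 1125 RPKM in HP and 1828, 1897 and 1799 RPKM in UP libraries (−0.78, adjusted p = 0.0501). Ccl2 had 166, 185 and 90.9 RPKM in HP and 119, 219 and 101 RPKM in UP libraries, which overlapped.

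**Figure D4:**
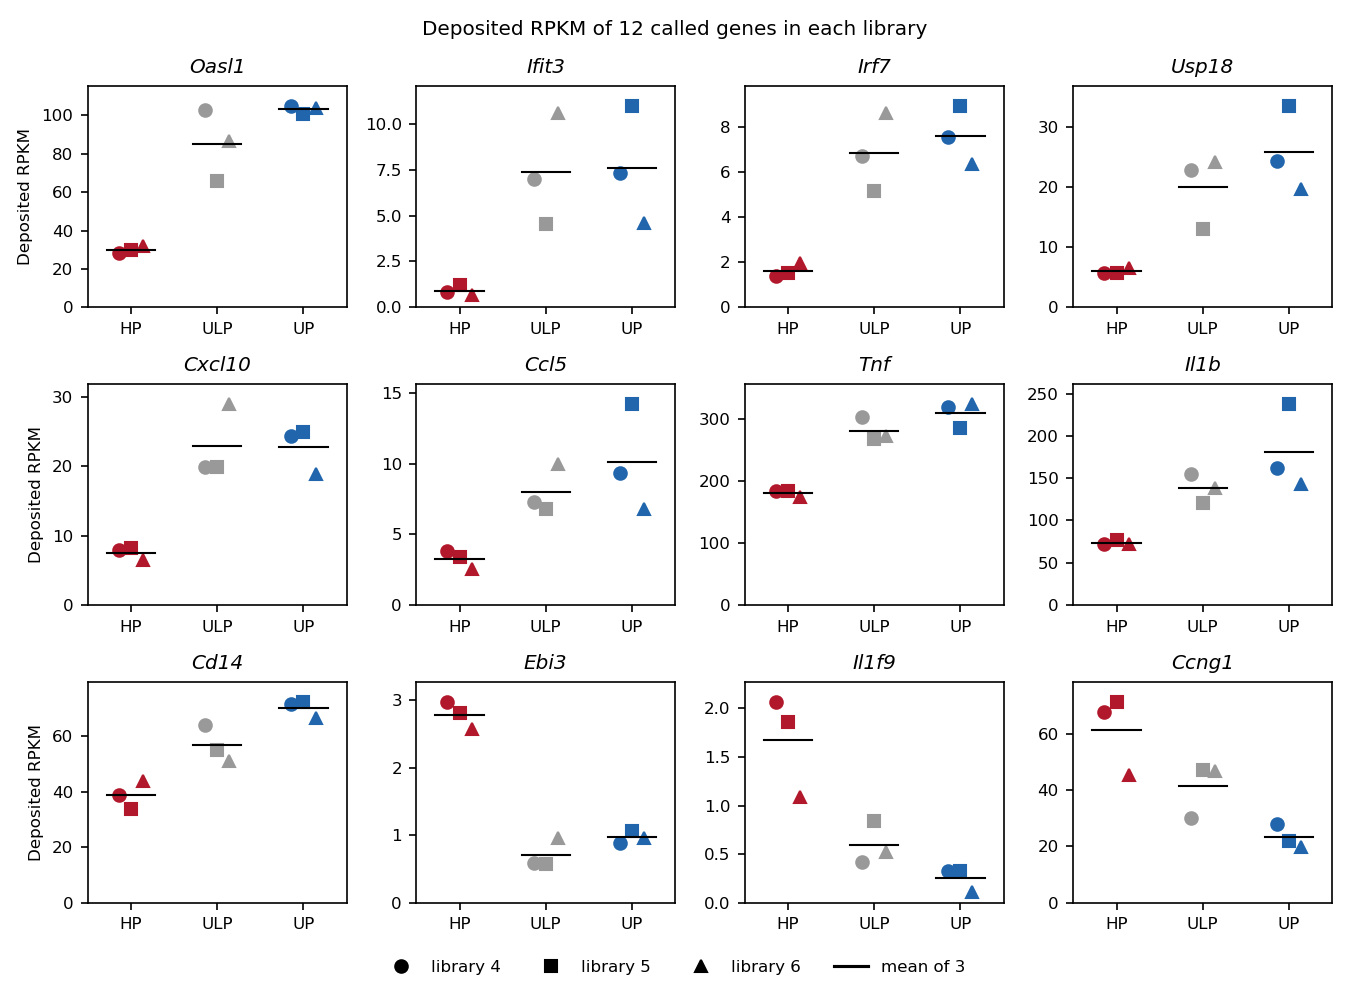
Deposited RPKM (y axis, from 0) of 12 called genes in the 3 HP, 3 ULP and 3 UP libraries, with symbols for the library number and a black line at the mean of 3. For the 9 lower genes each HP point lies below each UP point, such as Oasl1 with 28.1 to 32.1 in HP and 101 to 105 in UP, and for Ebi3, Il1f9 and Ccng1 each HP point lies above.

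Of the 5 tested genes of the TLR4 complex, Cd14, the LPS co-receptor, fell and 0 rose, beside 0.435% of all genes called lower. Cd14 had 38.7, 33.6 and 43.9 RPKM in HP and 71.7, 72.4 and 66.7 RPKM in UP libraries (log2 fold change −0.98, standard error 0.15, adjusted p = 0.0333 from edgeR). Tlr4 had 8.13, 9.26 and 3.94 RPKM in HP and 3.28, 2.87 and 2.41 RPKM in UP libraries, a log2 fold change of 1.20 that did not pass (adjusted p = 0.0661) and became −0.28 with GC content corrected for. HP 6 lay much nearer to the UP libraries than HP 4 and HP 5 did. For Tlr4, ULP 4, ULP 5 and ULP 6 had 4.23, 10.2 and 11.4 RPKM. Ly96, which encodes MD-2, had 4.35, 5.78 and 1.49 RPKM in HP and 1.81, 1.91 and 1.06 RPKM in UP libraries, with HP 6 inside the UP range.

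Ccrl2, an atypical receptor for the chemoattractant chemerin, had 0.147, 0.0982 and 0.0452 RPKM in HP and 0.547, 0.765 and 0.706 RPKM in UP libraries (log2 fold change −2.89, adjusted p = 0.0342 from edgeR). C5ar1, the receptor of the complement fragment C5a, had 3.65, 4.54 and 4.66 RPKM in HP and 7.74, 7.78 and 8.48 RPKM in UP libraries (−1.02, adjusted p = 0.0397). The co-stimulatory receptor Cd40 had 15.9, 16.2 and 18.7 RPKM in HP and 29.4, 30.7 and 29.98 RPKM in UP libraries (−0.95, adjusted p = 0.0439). Axl, a receptor kinase that binds dying cells through Gas6, fell by 1.74, with 0.228, 0.188 and 0.225 RPKM in HP and 0.778, 0.403 and 0.800 RPKM in UP libraries. As in all 64 lower genes, the groups did not overlap for any of these 4 receptors, while 20.9% of all genes tested had all HP below all UP libraries.

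No call was made among the transducers of the TLR4 signal. With 0.524% of all genes called, 0 calls in lists this short do not set these genes apart. Of the 16 adaptors and proximal kinases, the 9 subunits and kinases of NF-κB, the 20 MAPK genes and the 23 tested genes of PI3K and Akt signalling, 0 passed edgeR's test. In these lists 7, 5, 8 and 10 genes had an unadjusted edgeR p under 0.05, as did 6020 of all 14702 genes. DESeq2 called 5, 4, 6 and 8 of them, against 24.8% of all genes. Myd88 had 34.4, 32.5 and 41.1 RPKM in HP and 50.3, 47.6 and 48.6 RPKM in UP libraries, a log2 fold change of −0.56 that did not pass (adjusted p = 0.0606). Rela, the p65 subunit of NF-κB, had −0.42 (adjusted p = 0.0814), Pik3cg, the catalytic subunit of PI3Kγ, had 0.22 (adjusted p = 0.246), Akt1 had −0.29 and Mapk3 had −0.63. Of 25 inhibitors and feedback regulators 1 fell, where 0.435% of all genes did, namely Nfkbie, an inhibitor of NF-κB that its own pathway induces, with 8.43, 7.48 and 10.1 RPKM in HP and 15.1, 19.1 and 14.9 RPKM in UP libraries (−1.04, adjusted p = 0.046). The deubiquitinase Tnfaip3 (0.0084), Nfkbia (−0.36) and Socs3 (−0.60, adjusted p = 0.0589) did not pass.

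Of the 17 tested genes of antigen presentation by MHC class I and II, 2 fell, where 0.435% of all genes did, 0 rose and 15 had negative log2 fold changes. Tap1, a chain of the peptide transporter, had 4.82, 4.56 and 5.77 RPKM in HP and 12.0, 14.9 and 13.6 RPKM in UP libraries (log2 fold change −1.54, standard error 0.20, adjusted p = 0.0214 from edgeR). Tap1 is also counted among the called genes of the interferon-stimulated list. Tapbp, which holds MHC class I at the transporter, had 28.6, 24.4 and 37.4 RPKM in HP and 54.3, 57.0 and 56.2 RPKM in UP libraries (−1.01, adjusted p = 0.046). B2m, the light chain of MHC class I, had 1080, 1053 and 890 RPKM in HP and 1431, 1837 and 1449 RPKM in UP libraries and did not pass (−0.77, adjusted p = 0.0606). The median of the 17 genes was −0.65, and 14 of them had all HP libraries below all UP libraries, compared with 20.9% of all genes tested.

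Other called members of the lists were single genes. Trib3, a pseudokinase of the integrated stress response, had 10.7, 10.4 and 14.3 RPKM in HP and 23.95, 25.6 and 25.5 RPKM in UP libraries (log2 fold change −1.21, adjusted p = 0.033 from edgeR), and Atf5, a factor of the same response, had −1.12 and just missed the threshold (adjusted p = 0.0501). Nos2, the inducible nitric oxide synthase, had 2.98, 3.02 and 3.08 RPKM in HP and 4.00, 8.33 and 3.43 RPKM in UP libraries, where UP 5 was the highest, and did not pass (−0.93, adjusted p = 0.0721, and −0.40 without UP 5). Hif1a, which encodes the hypoxia-inducible factor 1α, had 28.2, 30.1 and 16.3 RPKM in HP and 14.1, 10.9 and 8.97 RPKM in UP libraries (1.01, adjusted p = 0.0637), and its log2 fold change was −0.0133 with GC content corrected for. Its levels in ULP 4, ULP 5 and ULP 6 were 15.4, 31.2 and 32.6 RPKM.

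Of the 64 lower genes 27 were in none of the lists, and those named here were chosen after their values were seen. The largest log2 fold change of the 77 called genes was that of Apol9a, an apolipoprotein L gene, with 0.0487, 0.0695 and 0.0249 RPKM in HP and 1.05, 1.71 and 1.098 RPKM in UP libraries (−4.78, standard error 0.46, adjusted p = 0.00571 from edgeR). Its near copy Apol9b had −4.17, and reads of the pair may have been exchanged. The protease inhibitors Serpina3g, Serpina3f and Serpina3i, again members of a family of close copies, fell by 1.503, 1.47 and 1.64, and Serpina3g had 15.1, 17.7 and 21.0 RPKM in HP and 44.6, 49.1 and 46.3 RPKM in UP libraries. Mpeg1, which encodes the pore-forming perforin-2 of macrophages, had 11.5, 12.6 and 11.2 RPKM in HP and 23.3, 22.4 and 20.2 RPKM in UP libraries (−1.02, standard error 0.12, adjusted p = 0.0177).

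Cbr2, a carbonyl reductase, had 3.23, 3.54 and 3.74 RPKM in HP and 9.06, 15.1 and 10.5 RPKM in UP libraries (log2 fold change −1.84, adjusted p = 0.0214 from edgeR). Ighm, the constant region of the immunoglobulin μ chain, had 8.16, 9.05 and 10.4 RPKM in HP and 24.9, 25.5 and 26.1 RPKM in UP libraries (−1.59, adjusted p = 0.0177), while the listed lymphocyte markers were near 0 as above. Trafd1, a feedback regulator of TLR signalling, had 4.02, 4.37 and 4.10 RPKM in HP and 10.3, 10.8 and 8.40 RPKM in UP libraries (−1.37, adjusted p = 0.0177). The smallest of the called changes was that of Pim1, a serine/threonine kinase, with 16.3, 17.7 and 16.6 RPKM in HP and 25.2, 23.9 and 23.8 RPKM in UP libraries (−0.65, standard error 0.10). The groups did not overlap for these genes, as for all 64 lower genes and for 20.9% of all genes tested in this direction.

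Of the 13 higher genes 12 were in none of the lists. Those other than Ccng1 and Peg10 had a mean CPM under 5, against a median of 19.4 over all genes tested, and are named after their values were seen. Ebi3, the chain shared by IL-27 and IL-35, had 2.98, 2.80 and 2.57 RPKM in HP 4, HP 5 and HP 6, with 0.588, 0.578 and 0.954 RPKM in the ULP libraries and 0.886, 1.07 and 0.953 RPKM in UP 4, UP 5 and UP 6. It was 2.63-fold higher in HP than in UP cells (log2 fold change 1.40, standard error 0.22, adjusted p = 0.0376 from edgeR). Relative to ULP cells, Ebi3 had a log2 fold change of 1.95 (adjusted p = 0.0178). Il27, which encodes the other chain of IL-27, did not pass (−0.81, adjusted p = 0.3). Il1f9, which encodes IL-36γ of the IL-1 family, had 2.07, 1.86 and 1.09 RPKM in HP and 0.326, 0.331 and 0.109 RPKM in UP libraries (2.59, standard error 0.44, adjusted p = 0.046).

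Ptpn5, a tyrosine phosphatase known from neurons, had 0.773, 0.528 and 0.648 RPKM in HP and 0.239, 0.175 and 0.230 RPKM in UP libraries (log2 fold change 1.48, adjusted p = 0.0333 from edgeR). Ccng1, a cyclin G gene and target of p53, had 67.7, 71.4 and 45.5 RPKM in HP, 30.1, 47.1 and 46.7 RPKM in ULP and 27.98, 22.0 and 19.9 RPKM in UP libraries (1.28, adjusted p = 0.046), and its log2 fold change was −0.0708 with GC content corrected for. Peg10, an imprinted gene derived from a retrotransposon, had 19.8, 21.4 and 15.9 RPKM in HP and 8.99, 5.52 and 7.89 RPKM in UP libraries (1.23, adjusted p = 0.0499). HP 6 was the lowest of the HP libraries for Il1f9, Ccng1 and Peg10, and still above each UP library. Fut11, Zfp788 and Catsperg1 had 2.65, 3.06 and 4.24, each with less than 1 RPKM in every library. Their log2 fold changes of ULP over UP were 2.26, 2.16 and 2.93, and those of HP over ULP 0.39, 0.90 and 1.31.

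HP 6 departed from HP 4 and HP 5 in sets of genes with large differences that did not pass the test. The 12 tested nuclear-retained RNAs and snoRNA host genes had a median difference from the UP mean of 1.83 in HP 4, 2.22 in HP 5 and 0.394 in HP 6, with 0.0892, 1.48 and 1.66 in ULP 4, ULP 5 and ULP 6 and 0.0945, 0.212 and −0.308 in the UP libraries. Malat1, an abundant RNA of nuclear speckles, had 45.6, 96.7 and 5.16 RPKM in HP and 3.14, 2.83 and 2.17 RPKM in UP libraries (log2 fold change 4.05, standard error 1.00, adjusted p = 0.0606 from edgeR). Neat1, the scaffold of paraspeckles, had 7.11, 18.8 and 1.39 RPKM in HP and 0.505, 0.659 and 0.329 RPKM in UP libraries (4.07, adjusted p = 0.0606). None of the 12 was called by edgeR with all libraries, whereas 11 were called higher by DESeq2 (17% of all genes) and 11 by edgeR without HP 6 (23.9% of all). With GC content corrected for, the log2 fold change of Malat1 was 2.23. That of Neat1 ran from 2.29 to 4.59 over the alternative settings. Its lowest value came from limma on log2(RPKM + 1), which makes changes of low genes smaller and is no correction for GC content. The part of these libraries' RNA composition in the other results was not tested.

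The same order of libraries was seen for Cenpf and Ccne2, a kinetochore protein and a cyclin, with 2.59, 3.69 and 0.312 and with 6.51, 7.69 and 0.907 RPKM in HP 4, HP 5 and HP 6, against 0.105, 0.162 and 0.0676 and 0.231, 0.435 and 0.103 RPKM in UP libraries. Tgfbr1, a receptor for TGF-β, had 6.63, 7.98 and 1.73 RPKM in HP and 0.835, 0.585 and 0.429 RPKM in UP libraries (log2 fold change 3.02, adjusted p = 0.0606 from edgeR, and 1.87 with GC content corrected for). In these genes HP 6 lay above each UP library but closer to them than to HP 4 and HP 5. In ULP 4, ULP 5 and ULP 6 Cenpf had 0.0991, 1.81 and 2.47 RPKM and Ccne2 had 0.405, 3.45 and 4.26 RPKM. Tgfbr1 had 1.17, 6.55 and 7.59 RPKM there, so that each ULP library was above each UP library for this gene. For Cenpf and Ccne2, ULP 5 and ULP 6 were above each UP library and ULP 4 was not. The 25 tested genes of the cell cycle had a median log2 fold change of 0.105, with 12 negative and 13 positive. Of these 25, 0 were called, where 0.524% of all genes were, so the 0 does not set the list apart. DESeq2 called 6 of them higher and 0 lower (17% and 7.79% of all genes). Without HP 6, edgeR called 8 higher and 1 lower (23.9% and 14.3% of all).

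When HP 6 was left out of the fit and its values then set beside the calls, it exceeded each UP library in 2505 of the 3578 genes called higher (70%) and was below each in 1844 of the 2143 genes called lower (86%). These shares describe HP 6 only, because the UP libraries had been used for the calls. The share of all genes tested in which HP 6 lay above or below each UP library was not computed. The 70% and 86% therefore stand without a background. Leaving out HP 5 gave 6 lower genes, and HP 5 was below all UP libraries in all 6. Leaving out HP 4 gave no call by edgeR, with 3676 genes at an unadjusted p under 0.05.

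Several metabolic lists had negative medians with no gene called by edgeR. With 0.524% of all genes called, 0 calls in lists this short do not set them apart. For the 36 nuclear genes of oxidative phosphorylation the median difference from the UP mean was −0.483, −0.694 and −0.252 in HP 4, HP 5 and HP 6, against −0.174, 0.257 and −0.0689 in the UP libraries, and 25 had all HP libraries below all UP libraries (20.9% of all genes tested). The 26 genes of cholesterol synthesis had −0.557, −0.55 and −0.318 in HP and 0.0587, 0.0204 and 0.0167 in UP libraries. Fdps, farnesyl diphosphate synthase, had 13.8, 13.3 and 17.5 RPKM in HP and 22.1, 29.9 and 24.4 RPKM in UP libraries (log2 fold change −0.90, adjusted p = 0.0606 from edgeR). The 21 genes of glycolysis had −0.551, −0.67 and −0.186 in HP and −0.071, 0.00769 and 0.0421 in UP libraries, and the 25 lysosomal genes had −0.491, −0.592 and −0.281 in HP and −0.12, 0.109 and 0.0201 in UP libraries. HP 6 was the closest to the UP libraries in each of these 4 lists, whereas it was the farthest from them in the interferon-stimulated list. DESeq2 called 11 of 36, 13 of 26, 6 of 21 and 14 of 25 genes lower in these lists, against 7.79% of all genes. In ULP 4, ULP 5 and ULP 6 the medians were −0.154, −0.508 and −0.586 for oxidative phosphorylation and −0.0244, −0.272 and −0.273 for cholesterol synthesis. They were −0.114, −0.522 and −0.601 for glycolysis and −0.0746, −0.396 and −0.462 for the lysosomal genes. The median log2 fold changes of HP over ULP were −0.0438, −0.278, −0.0212 and −0.116 in the same order.

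**Figure D5:**
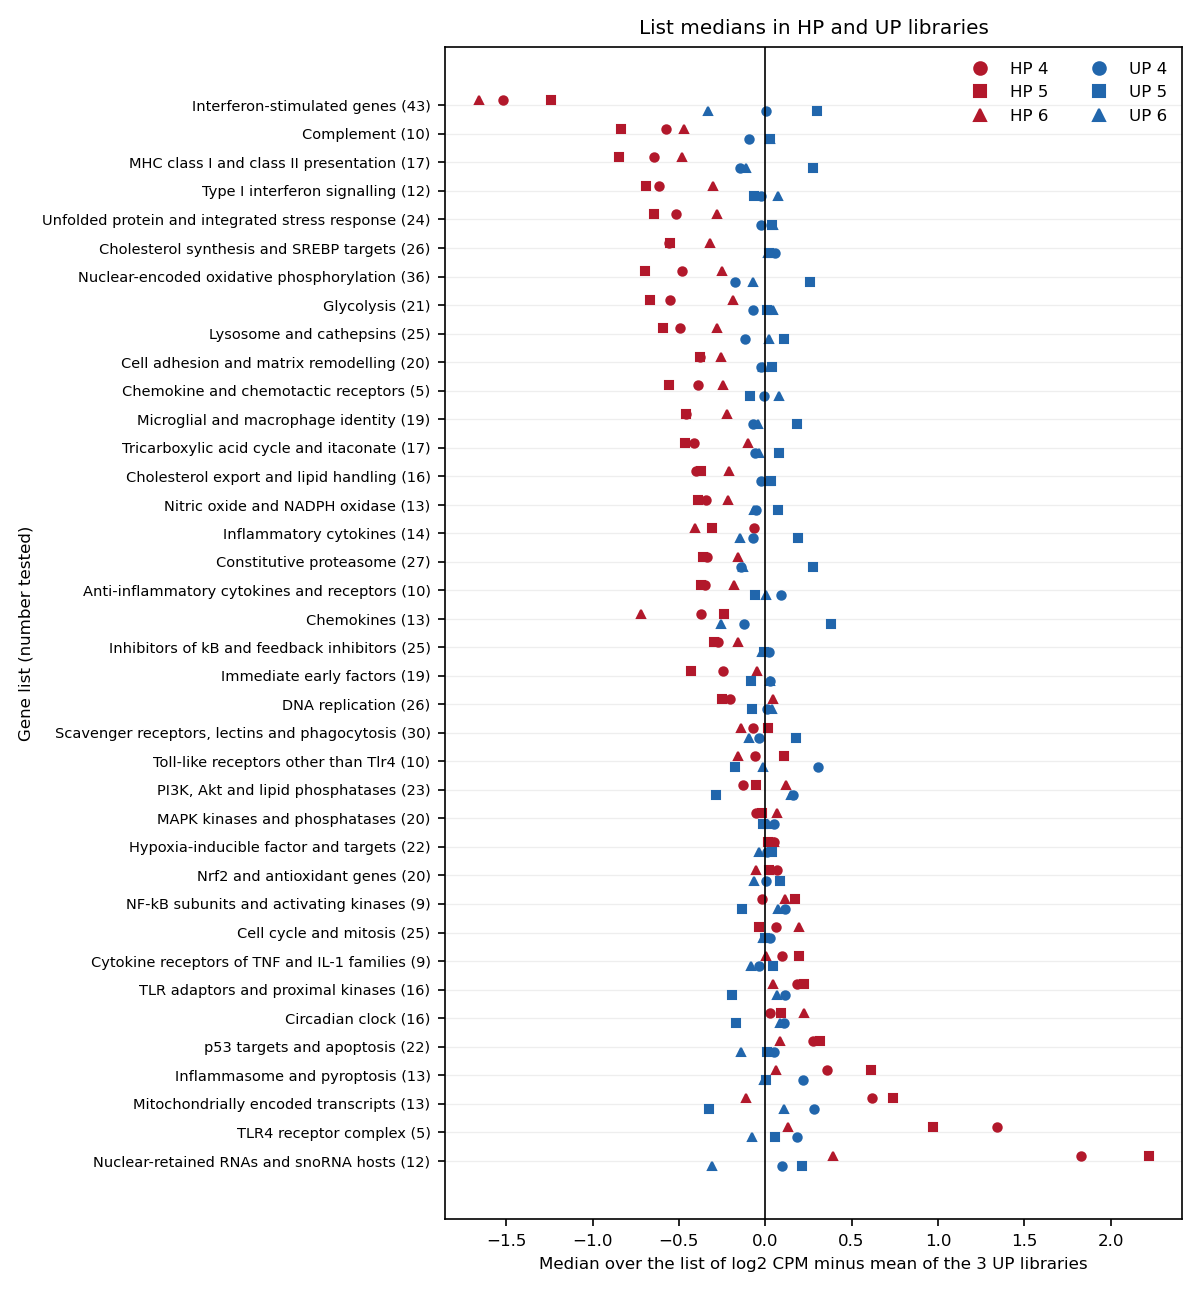
Median over each list of log2 CPM minus the mean of the 3 UP libraries (x axis) for 38 gene lists (y axis, with the number of genes tested), with red for HP and blue for UP libraries and symbols for the library number. The interferon-stimulated list, at the top, has −1.52, −1.24 and −1.66 in the HP libraries, and the nuclear-retained RNAs, at the bottom, have 1.83 and 2.22 in HP 4 and HP 5 and 0.394 in HP 6.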

How the data were processed

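Poly(A) RNA of 9 BV-2 libraries was sequenced by the authors. The submitters' processing notes name bcl2fastq 1.8.4, TopHat2 2.1.0, featureCounts 1.5.0 and the build GRCm38, whereas the supplement names another build. The deposited counts are raw whole numbers of reads per gene. The deposited RPKM values were made by the authors from these counts, relative to the library total and the gene length, and the deposited values scaled to the total alone (RPM) were not used here. The kit is stranded, but no source used here gives the strand setting of featureCounts, which leaves overlapping and antisense genes uncertain. Of 48526 genes 24933 had no count. No column of per-sample values lacked a sample. HP and UP were formed by title.

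Counts were filtered by filterByExpr (14702 genes kept), scaled by TMM (factors 1.03 to 1.04 in HP and 0.927 to 0.977 in UP libraries) and tested by edgeR 4.0.16 (R 4.3.3) with quasi-likelihood, all 9 libraries in 1 fit. Levels are the deposited RPKM, which lack this scaling. Principal components and median differences used log2 CPM with a prior count of 2. Positions and promoter windows came from RefSeq on GRCm38.p6. Alternatives were RLE size factors, DESeq2 1.42.0, limma 3.58.1 on log2(RPKM + 0.1) and log2(RPKM + 1), offsets for gene length and GC content (loess, span 0.3, GC found for 99.1% of genes), a replicate block, no filter, only the 6 libraries, and each library left out.

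The members, gene lists and tests were chosen with earlier results of these data known. Named genes are those the study measured, up to 10 higher and 15 lower called genes with the largest change and a mean CPM of at least 5, and per list up to 4 called members or, with none, 3 members with the smallest p. Others were named after their values were seen. Some genes and their values are not reported here.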

Additional observations from a re-analysis of the deposited data

How the results depend on the processing

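The 64 lower genes kept their direction under each alternative and library left out. Of the 13 higher genes 12 did so wherever they were tested, and Ccng1 reversed to −0.0708 with GC content and to −0.0811 with a replicate block and GC content. What the replicate numbers 4, 5 and 6 stand for is not stated. In deviations from the group means, same-numbered HP and UP libraries had correlations of 0.0932, 0.114 and 0.51. Only HP 6 was closest to its own number. With 3 libraries a group, these values cannot decide whether libraries of the same number belong together. With the replicate block, edgeR called 0 higher and 0 lower genes (4850 at an unadjusted p under 0.05), and 0 interferon-stimulated genes. With the block, 3 were higher and 29 lower with a gene length offset (14 of the interferon-stimulated list lower), and 2 were higher and 43 lower with a GC content offset (20 of the list). Without the block, a GC content offset gave 60 higher and 148 lower genes. With no filter on low counts, 1612 were higher and 406 lower, and 35 of the interferon-stimulated list were lower. With only the HP and UP libraries, 1218 were higher and 293 lower. DESeq2 called 2505 higher and 1145 lower, 38 of them in that list. Limma called 7 higher and 39 lower with a pseudocount of 0.1, and 29 lower with 1, of which 10 were in the list, and a pseudocount of 1 gave smaller changes for low genes, such as −0.61 for Ccrl2 and −0.44 for Axl. With 1 library left out, the counts ran from 0 to 3578 higher and from 0 to 2143 lower genes, and from 0 to 36 lower genes of the list. By deposited RPKM, 1681 in place of 3074 genes had all HP libraries below and 4432 in place of 3225 above all UP libraries. The alternatives for the list and for the overlap of libraries were chosen after seeing the data. The cause of these differences was not tested.

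A gene that was not called with 3 libraries a group is not shown to be equal. Genes such as Il6 and Il10, with a few counts per library, could not be compared.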

Other observations

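Of the 10 tested complement genes 9 had negative log2 fold changes in HP over UP cells, where the median of all genes tested was 0.0076. C5ar1, already given among the receptors, was the only call, beside 0.435% of all genes called lower. C1qb, a chain of the first complement component that microglia make in large amounts, had 182, 161 and 235 RPKM in HP and 328, 429 and 360 RPKM in UP libraries (log2 fold change −1.08, adjusted p = 0.0606 from edgeR). HP 6 had the highest level of the 3 HP libraries. Spi1, which encodes the macrophage factor PU.1, had 130, 106 and 163 RPKM in HP and 200, 191 and 222 RPKM in UP libraries (−0.74, adjusted p = 0.0606), and Csf1r, the receptor of the growth factor CSF1, had 77.8, 82.6 and 109 RPKM in HP and 122, 97.7 and 137 RPKM in UP libraries (−0.52, adjusted p = 0.0785). Neither passed the test. Acod1, which makes itaconate in activated macrophages, had 428, 453 and 412 RPKM in HP and 591, 469 and 532 RPKM in UP libraries (−0.42, adjusted p = 0.0608). Il1rn, the antagonist of the IL-1 receptor, had 7.75, 7.27 and 7.08 RPKM in HP and 8.17, 6.85 and 6.99 RPKM in UP libraries, which overlapped.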
